A study of Homo sapiens with 9 samples.

Results

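The adenosine deaminases that act on RNA were followed in U87 cells, an established human glioma line, through every probe set on the array that the platform annotation assigns to a single symbol among ADAR, ADARB1, ADAT1, ADAT2 and ADAT3. The 5 genes are among 19775 with a probe set of their own, and the rule gave 11 probe sets of 54613 that are not array controls. ADARB1 had 5 of them, ADAT2 and ADAT3 had 2 each, and ADAR and ADAT1 had 1 each. Of these, 9 were bright enough to be tested, among 32768 tested in all, and 2 dim probe sets of ADARB1 were not. One further probe set names both ADAT3 and SCAMP4 and is therefore no member.

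U87 cells received a miRNA duplex at 50 nM by lipid transfection, 100000 cells per sample, and total RNA was taken after 24 h. The groups were miR-376a*A, miR-376a*G and a control miRNA, each as 3 biological replicates with 1 Affymetrix expression array per replicate. The transfection, the cell line and the medium were shared by all 3 groups, and the sequence of the control miRNA is not given in the labels. Untransfected cells were not analysed here. As published, miR-376a*A has the genome's sequence, while miR-376a*G stands for the product of editing, in which inosine is read as G. The study asked which transcripts change with each form.

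Enzymes of this family convert adenosine to inosine in RNA by hydrolytic deamination. ADAR and ADARB1 act on double-stranded RNA, including the hairpins of primary miRNAs, and the cluster that holds miR-376a is a well-known substrate. ADAR also marks the cell's own double-stranded RNA so that the sensor IFIH1 does not respond to it, and one of its protein forms is induced by interferon. ADARB1 is best known for recoding the glutamate receptor transcript GRIA2 in the brain. The ADAT enzymes act on tRNA instead: ADAT1 deaminates an adenosine beside the anticodon of alanine tRNA, and ADAT2 with ADAT3 forms the enzyme that makes wobble inosine, with ADAT2 as the catalytic subunit.

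The miRNA under study comes from a substrate of the enzymes that act on double-stranded RNA. The mature 5p strand and the hairpin of this miRNA are therefore shown here from RefSeq (GRCh38.p14, plus strand). The older name miR-376a* is taken to mean the strand now called hsa-miR-376a-5p, at chr14:101040788-101040809. In the mature sequence capitals mark the seed, bases 2 to 8, which sets most of the target choice of a miRNA.
hsa-miR-376a-5p: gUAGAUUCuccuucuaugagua
In the hairpin of MIR376A1, at chr14:101040782-101040849, capitals mark the mature 5p strand, and the lower-case bases after the loop hold the 3p strand that pairs with it.
MIR376A1 hairpin: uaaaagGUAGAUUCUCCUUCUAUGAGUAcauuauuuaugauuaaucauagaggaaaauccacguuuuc
A closely related strand of the neighbouring hairpin MIR376A2, at chr14:101040080-101040100, carries an extra base before the shared run, which shifts its seed.
hsa-miR-376a-2-5p: gGUAGAUUuuccuucuauggu
The labels give neither the sequences of the transfected duplexes nor the base that separates the forms, so that base is not marked.

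The trimmed mean was 100.01 on every array, and the median signal lay between 17.9 and 20.3. Control replicate 1 and control replicate 2 varied most around their group mean, with SDs of 0.166 and 0.145 (log2) over the tested probe sets, against 0.102 to 0.114 on the other 7 arrays. Of 9 markers of glioma and mesenchymal glial cells, 7 passed the filter on dim probe sets, with VIM and CD44 at median signals of 2105.9 and 1940.4. TNC stood at 1554.9, CHI3L1 at 134.8 and NES at 72.1. SOX2 and OLIG2 passed only at medians of 22.1 and 19.8, near the median signal of the arrays. The astrocyte markers GFAP and S100B were below the filter, at medians of 1.54 and 1.18. Markers of other cells were mostly dim, with 1 of 3 for leukocytes, 1 of 3 for endothelium, 1 of 3 for epithelium and 0 of 2 for hepatocytes passing. Among 4 neuronal markers 3 passed, and SNAP25 stood at a median of 420.9. RAP2A, a RAP-family GTPase gene and a published target of the A form, was lower with miR-376a*A than with miR-376a*G by 0.84 ± 0.0839 (SE, log2 difference -0.84, adjusted p = 1.66e-05).

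Transcripts of these deaminases were lower with the miR-376a* forms where they changed. The changes were modest, at 1.2-fold to 1.42-fold against the control on the log2(signal + 16) scale. That scale understates folds of probe sets of low signal, such as the called one of ADARB1. With miR-376a*A, ADAR and ADAT1 fell. With miR-376a*G, ADAR fell further, and 1 probe set each of ADARB1 and ADAT3 fell. No probe set of ADAT2 passed the test in any comparison. Only ADAR separated the miR-376a* forms from each other by the test. All tests were two-sided limma tests on log2(signal + 16) over the 9 arrays with Benjamini-Hochberg adjusted p-values over all tested probe sets, and a probe set passed under 0.05.

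In either direction together, the counts of deaminase probe sets lay near the shares found over the whole array. For miR-376a*A against the control 2 of the 9 tested probe sets passed, both as lower, while 21.3% of all tested probe sets passed (10.3% higher and 11.1% lower). For miR-376a*G against the control 3 of 9 passed, all as lower, with 25.8% passing on the whole array (11.5% higher and 14.3% lower). Between the forms 1 of 9 passed, as higher with miR-376a*A, with 18.1% passing on the whole array (10.2% higher and 7.95% lower). The split over the array depended on scaling: of all calls, 48.1% were higher with miR-376a*A than with the control and 56.2% higher than with miR-376a*G, against 37.8% and 39.6% after median centring. The groups did not overlap in 4 of the 9 probe sets in each comparison, against 36.7%, 39.1% and 42% of all tested probe sets. The median log2 difference of the 9 was -0.13 with miR-376a*A and -0.23 with miR-376a*G, where all tested probe sets had medians of 0.02 and -0.02. Between the forms it was 0.02, beside 0.03 for all. Both miR-376a* groups were set against the same 3 control arrays, and probe sets of one gene share a transcript.

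**Figure D1:**
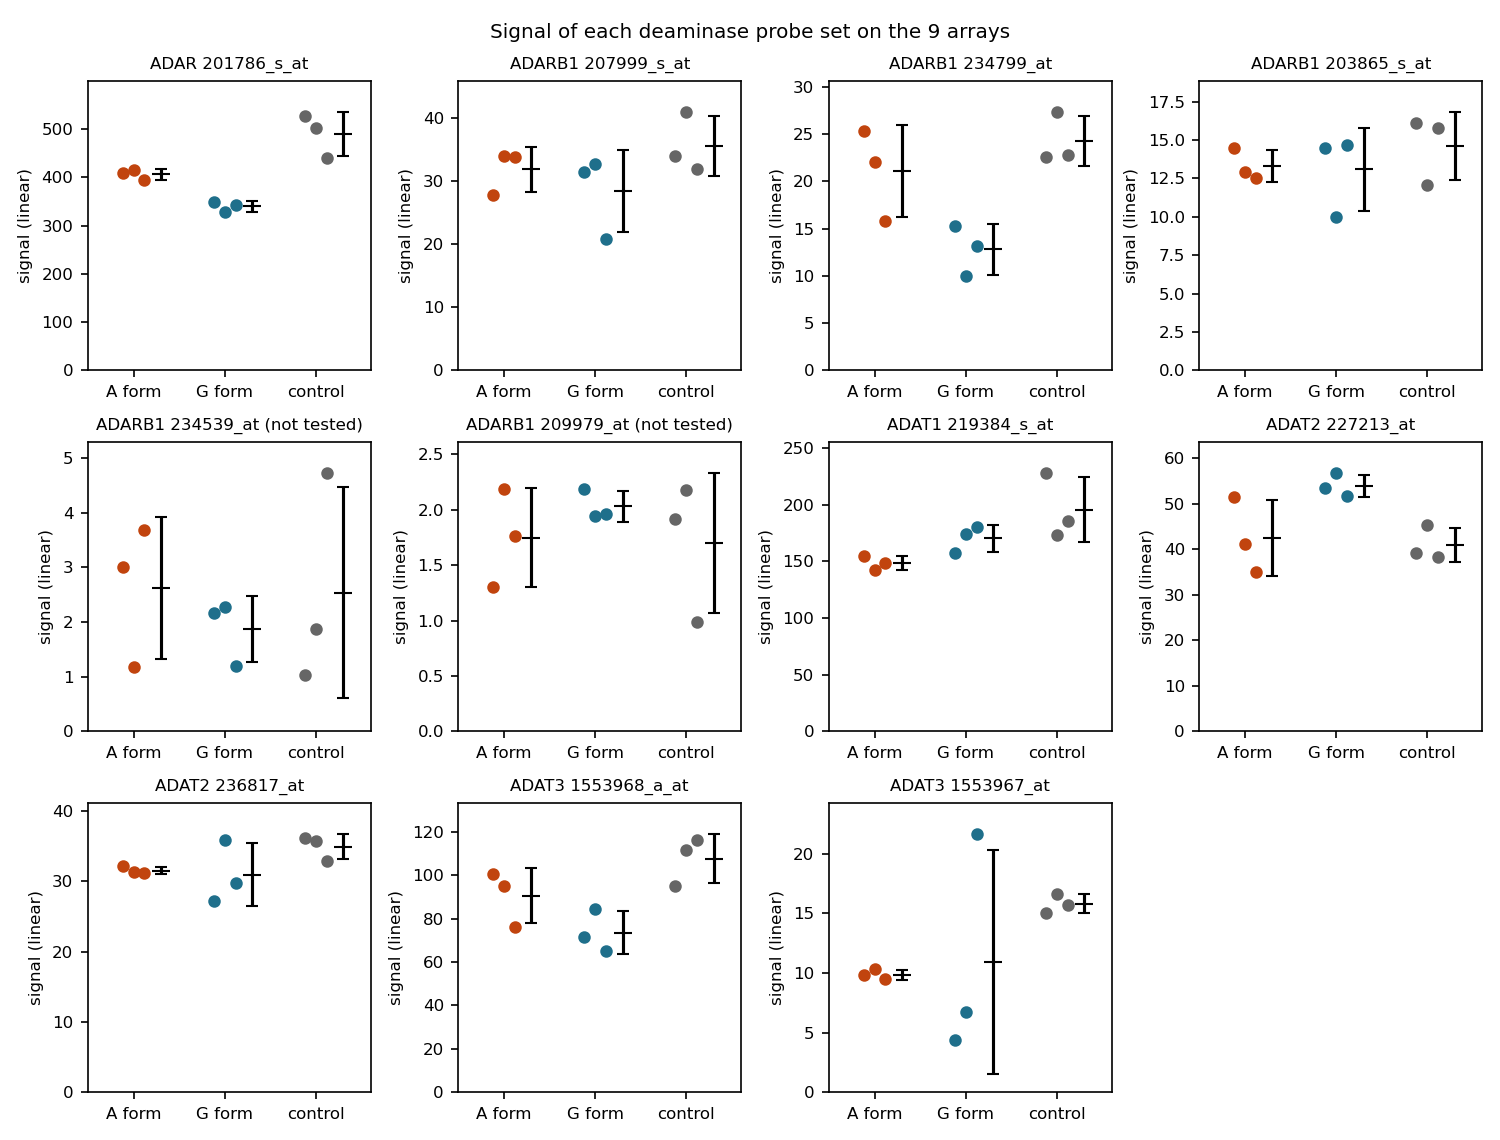
Signal (linear, y axis from 0) of the 11 deaminase probe sets on the 9 arrays, with miR-376a*A (A form), miR-376a*G (G form) and control miRNA on the x axis of each panel; dots are arrays, and the bar beside them is the mean with its SD (n = 3). The 3 groups of ADAR form separate bands, whereas the 2 untested ADARB1 probe sets stay below a signal of 5 on every array.

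ADAR encodes the broadly expressed deaminase of double-stranded RNA. Its single probe set (201786_s_at) gave signals of 409.5, 414.7 and 394.1 with miR-376a*A, 349.2, 328.2 and 342.6 with miR-376a*G, and 527.6, 501.6 and 439.9 with the control miRNA. All 3 arrays of each group lay apart from those of the other groups, with miR-376a*G lowest and the control highest. The mean was 406.1 ± 10.7 with miR-376a*A, 340.0 ± 10.7 with miR-376a*G and 489.7 ± 45 with the control (SD, n = 3 each).

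ADAR was 1.42-fold lower with miR-376a*G than with the control, a log2 difference of -0.50 ± 0.0746 (SE, 95% interval -0.66 to -0.34, adjusted p = 3.39e-04). That call held without any one of the 9 arrays, with differences between -0.576 and -0.449. With miR-376a*A the transcript was 1.2-fold lower than with the control, at -0.26 ± 0.0746 (SE, 95% interval -0.42 to -0.10, adjusted p = 0.0269). This smaller fall no longer passed when a single miR-376a*A array, whichever it was, or control replicate 2 was dropped (adjusted p from 0.0534 to 0.1), and in a fit of only the compared groups (adjusted p = 0.0661). With array weights, which rest mainly on control replicate 3, it was -0.127 (adjusted p = 0.0505).

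The forms also differed from each other in ADAR. The transcript was 1.19-fold higher with miR-376a*A than with miR-376a*G, at 0.25 ± 0.0746 (SE, 95% interval 0.08 to 0.41, adjusted p = 0.0375). Although the direction held under every alternative run, dropping a single array of either form, whichever it was, left ADAR short of the call (adjusted p from 0.0658 to 0.14). The call also ended when each array was centred on its median (0.187, adjusted p = 0.107), with no filter (adjusted p = 0.0537) and without the intensity trend (adjusted p = 0.063). As ADAR is read here by 1 probe set, its interferon-induced and constitutive transcripts were not separated. In these bulk samples fewer cells that make a transcript and less of it per cell cannot be told apart, for ADAR and for the other genes described.

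ADARB1, the gene of the deaminase that recodes GRIA2, had mean signals from 1.83 to 32 over its 5 probe sets. The median signals of the arrays lay between 17.9 and 20.3. The brightest (207999_s_at) gave 27.8, 34 and 33.9 with miR-376a*A, 31.4, 32.8 and 20.9 with miR-376a*G, and 34, 40.9 and 31.9 with the control. These groups overlapped, and the low mean with miR-376a*G, 28.4 ± 6.53 against 35.6 ± 4.72 in the control (SD, n = 3 each), included 1 low array. Its log2 difference was -0.11 with miR-376a*A (95% interval -0.37 to 0.16, adjusted p = 0.577) and -0.23 with miR-376a*G (95% interval -0.49 to 0.04, adjusted p = 0.2).

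Another ADARB1 probe set (234799_at) did pass. Its signals were 25.3, 22.1 and 15.8 with miR-376a*A, 15.3, 9.95 and 13.2 with miR-376a*G, and 22.6, 27.3 and 22.8 with the control. All miR-376a*G arrays lay under all others, and the miR-376a*A arrays spread from just above them to the level of the control. It was 1.4-fold lower with miR-376a*G than with the control, at -0.49 ± 0.12 (SE, 95% interval -0.75 to -0.23, adjusted p = 0.00989). Because the signal is low, the size depends on the offset, with -0.886 at an offset of 1 and -0.201 at 64, both of which passed. Between the forms it stood at 0.36 (95% interval 0.10 to 0.62, adjusted p = 0.0556), and with miR-376a*A against the control at -0.13 (95% interval -0.39 to 0.13, adjusted p = 0.498). The between-form difference passed without miR-376a*A replicate 3, its lowest array of that group, at 0.467 (adjusted p = 0.0254), with array weights (adjusted p = 0.0179) and without the intensity trend (adjusted p = 0.0447).

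The remaining ADARB1 probe sets did not pass in any comparison run. One (203865_s_at) had signals between 9.96 and 16.1 on the 9 arrays, with group means of 13.3 ± 1.04 with miR-376a*A, 13.1 ± 2.69 with miR-376a*G and 14.6 ± 2.2 with the control (SD, n = 3 each). Its differences were -0.06 and -0.08 (log2) against the control and did not pass, with 95% intervals of -0.30 to 0.17 for miR-376a*A and -0.31 to 0.16 for miR-376a*G. The untested probe sets (234539_at and 209979_at) had signals between 1.03 and 4.72 and between 0.989 and 2.19, with overlapping groups. In a fit without the filter neither passed, with differences between -0.05 and 0.06 (log2) over the 3 comparisons. The annotation gives 234539_at and the called 234799_at the same source sequence, yet 234539_at stood at -0.05 with miR-376a*G against the control. As no other ADARB1 probe set passed, the ADARB1 fall with miR-376a*G rests on 1 probe set of 5.

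ADAT1, which deaminates alanine tRNA, was the one tRNA enzyme gene of the family that changed with miR-376a*A. Its probe set (219384_s_at) gave 155.2, 142.8 and 149.0 with miR-376a*A, 157.1, 174.3 and 180.2 with miR-376a*G, and 227.7, 173.6 and 186.1 with the control. The miR-376a*A arrays were the lowest of the 9, while the miR-376a*G and control arrays overlapped. ADAT1 fell 1.28-fold with miR-376a*A, at 149.0 ± 6.23 against 195.8 ± 28.4 in the control (SD, n = 3 each), a log2 difference of -0.35 ± 0.0962 (SE, 95% interval -0.56 to -0.14, adjusted p = 0.0201). Dropping miR-376a*A replicate 2 ended that call (adjusted p = 0.0772), as did dropping replicate 3 of the same group (adjusted p = 0.06). Without control replicate 1, the highest of the 9 arrays, the call held but the difference shrank to -0.247 (adjusted p = 0.0322).

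With miR-376a*G, ADAT1 stood at -0.18 against the control (95% interval -0.39 to 0.03, adjusted p = 0.204), and between -0.253 and -0.071 with 1 array left out. The forms were not shown to differ in ADAT1, at -0.18 for miR-376a*A minus miR-376a*G (95% interval -0.38 to 0.03, adjusted p = 0.238), although the difference passed with array weights (-0.203, adjusted p = 0.0311). The order was therefore miR-376a*A lowest and the control highest, with neither neighbouring pair separated by the test.

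ADAT2 encodes the catalytic subunit of the wobble deaminase, and neither of its probe sets passed. The brighter (227213_at) gave 51.5, 41.1 and 34.9 with miR-376a*A, 53.5, 56.6 and 51.7 with miR-376a*G, and 39.2, 45.3 and 38.2 with the control. All 3 miR-376a*G arrays lay above the other 6. Its difference was 0.30 with miR-376a*G against the control (95% interval 0.07 to 0.53, adjusted p = 0.0576), and it crossed the threshold under 8 of the alternatives, with adjusted p as low as 0.00197. Between the forms it was -0.27 (95% interval -0.50 to -0.03, adjusted p = 0.108), and it passed without miR-376a*A replicate 1, at -0.374 (adjusted p = 0.036), with array weights (adjusted p = 0.0253) and after median centring (adjusted p = 0.0488).

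The other ADAT2 probe set (236817_at) did not share this pattern. It gave 32.1, 31.3 and 31.2 with miR-376a*A, 27.2, 35.8 and 29.7 with miR-376a*G, and 36.1, 35.7 and 32.9 with the control. The miR-376a*A arrays lay just under the control, at a difference of -0.10 (95% interval -0.30 to 0.10, adjusted p = 0.49), and the miR-376a*G arrays spanned both groups, at -0.12 (95% interval -0.32 to 0.08, adjusted p = 0.376). The ADAT2 probe sets thus had opposite signs with miR-376a*G, and neither passed.

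ADAT3, the partner that ADAT2 needs for activity, was lower with miR-376a*G on its brighter probe set (1553968_a_at). Signals were 100.4, 94.8 and 76.2 with miR-376a*A, 71.5, 84.2 and 64.9 with miR-376a*G, and 94.8, 111.5 and 116.1 with the control. The miR-376a*G arrays all lay under the control arrays, and the miR-376a*A arrays overlapped both. ADAT3 was 1.38-fold lower with miR-376a*G than with the control, at 73.5 ± 9.83 against 107.5 ± 11.2 (SD, n = 3 each) and a log2 difference of -0.47 ± 0.113 (SE, 95% interval -0.71 to -0.22, adjusted p = 0.00877). The call held without any one array, with adjusted p up to 0.046. With miR-376a*A it stood at -0.22 (95% interval -0.46 to 0.03, adjusted p = 0.198) and passed with array weights (-0.319, adjusted p = 0.00796), and between the forms at 0.25 (95% interval 0.00 to 0.49, adjusted p = 0.152).

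The dimmer ADAT3 probe set (1553967_at) was uneven. It gave 9.81, 10.3 and 9.48 with miR-376a*A, 4.41, 6.7 and 21.6 with miR-376a*G, and 15, 16.6 and 15.7 with the control. The miR-376a*A arrays were tightly grouped under the control, at -0.30 (95% interval -0.68 to 0.09, adjusted p = 0.267), while miR-376a*G replicate 3 was the highest of all 9 arrays and the others of that group the lowest. Against the control miR-376a*G stood at -0.29 (adjusted p = 0.261), and without replicate 3 at -0.561 (adjusted p = 0.00514).

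ADAT3 overlaps SCAMP4, a gene of vesicle membranes, in the RefSeq gene table, and the probe set that names both (230634_x_at) was lower with either form. It gave 29.8, 25 and 31.8 with miR-376a*A, 31.4, 31 and 27 with miR-376a*G, and 42.3, 47.3 and 37.6 with the control. The differences were -0.38 with miR-376a*A (adjusted p = 0.0169) and -0.35 with miR-376a*G (adjusted p = 0.0216). Which of these genes gave this signal, and how far SCAMP4 enters the ADAT3 probe sets, was not tested.

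**Figure D2:**
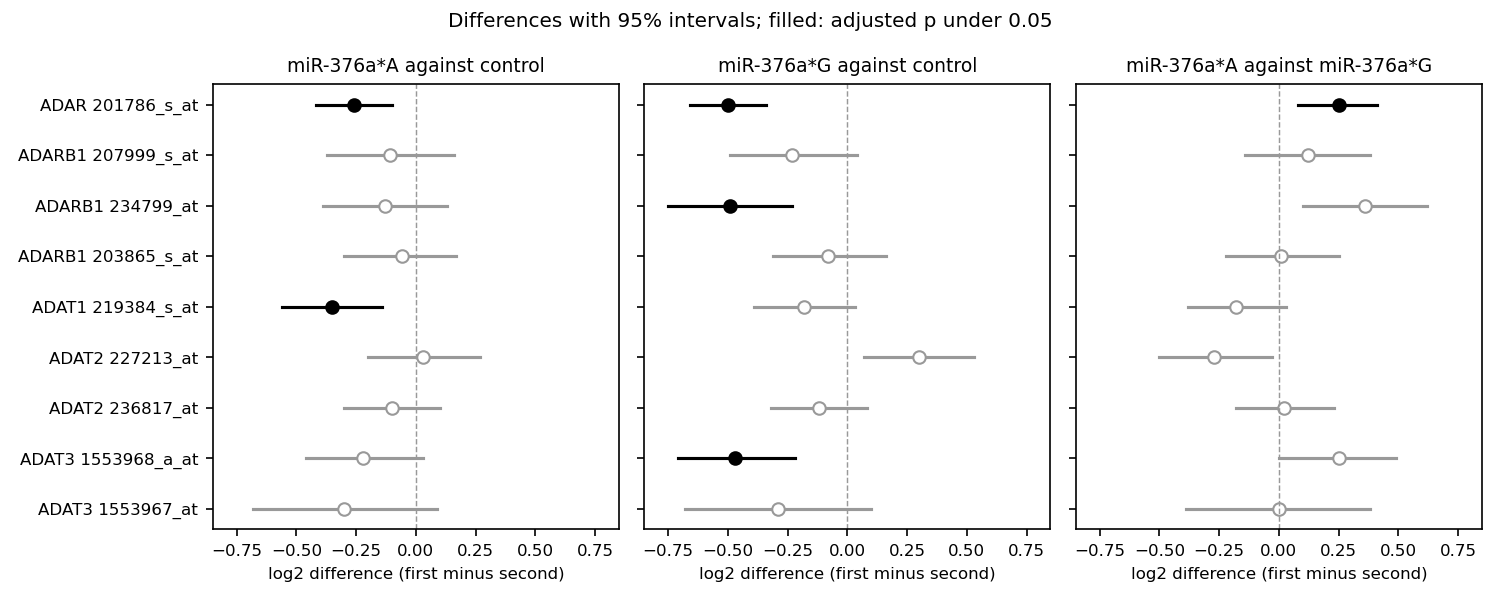
Log2 differences on the log2(signal + 16) scale (x axis, first group minus second) with 95% intervals for the 9 tested probe sets in the 3 comparisons; filled points have an adjusted p under 0.05. ADAR is filled in every panel, at -0.26, -0.50 and 0.25, and the other filled points are ADAT1 with miR-376a*A and 1 probe set each of ADARB1 and ADAT3 with miR-376a*G.

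**Figure D3:**
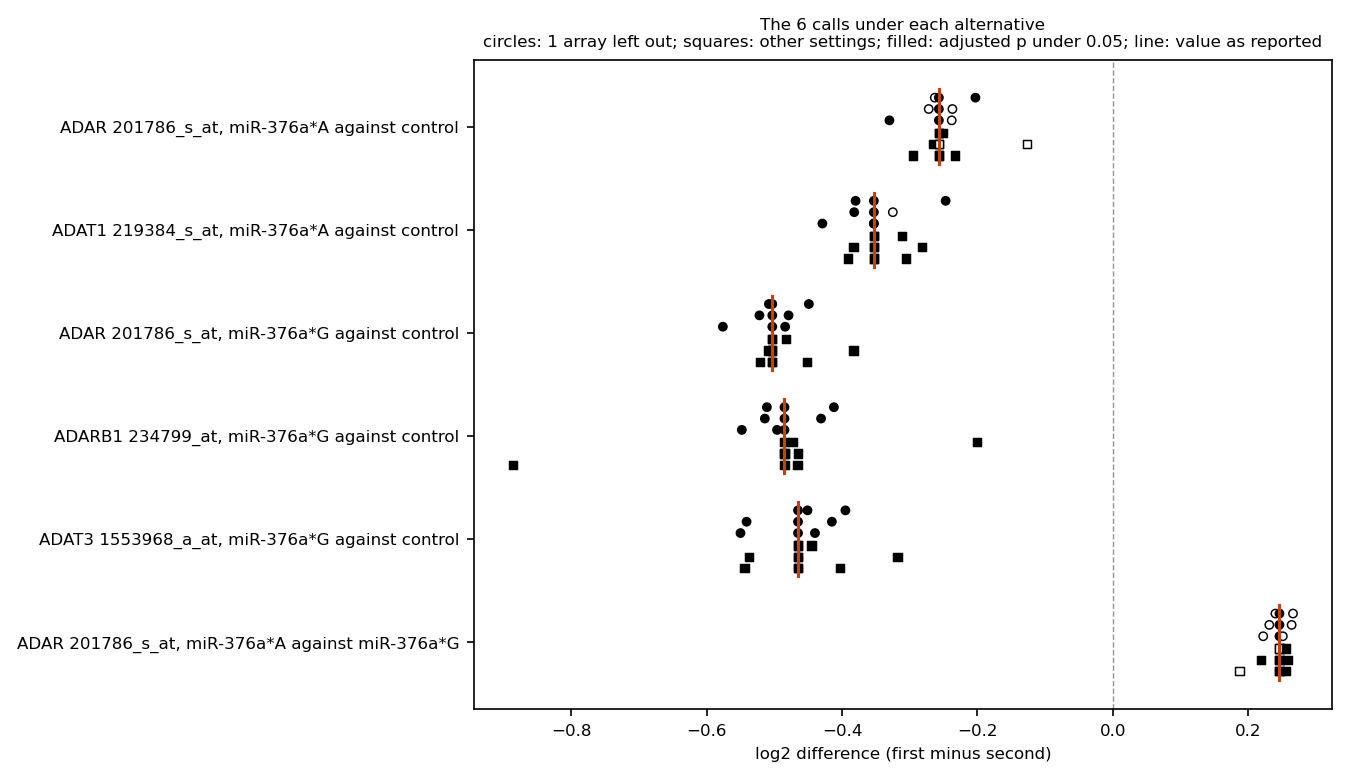
The 6 calls recomputed with 1 array left out (circles) and under the other settings (squares), as log2 differences on the x axis; filled points have an adjusted p under 0.05, and the vertical line is the value as reported, where coinciding points hide some open ones. Every point keeps its side of 0, and open points occur only for ADAR with miR-376a*A against the control, ADAR between the forms and ADAT1.

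ADAR is an interferon-induced gene, and genes of that kind were described beside it. Over the whole array 10.3% of probe sets were higher and 11.1% lower with miR-376a*A, and 11.5% higher and 14.3% lower with miR-376a*G, with medians of 0.02 and -0.02. Between the forms 10.2% were higher and 7.95% lower with miR-376a*A. Such shares cover all tested probe sets, also the dimmer ones of a gene. Each listed gene, here and below, is read by its brightest tested probe set alone, so the sets compared are not alike. Of 16 tested interferon-induced genes 0 rose and 4 fell with miR-376a*A, with a median of -0.14 (log2), and 2 rose and 7 fell with miR-376a*G, with a median of -0.28. IFIT3, an antiviral RNA-binding protein gene, fell 1.52-fold with miR-376a*A and 1.7-fold with miR-376a*G. HERC5, a ligase that attaches ISG15, and SAMD9 fell 1.47-fold and 1.4-fold with miR-376a*A, and SAMD9 also fell 1.25-fold with miR-376a*G. PARP9 fell 1.47-fold with miR-376a*G, whereas IFI44L rose 1.36-fold. The dimmer probe set of IFIT3 (-0.20) did not pass with miR-376a*A, nor did that of PARP9 (-0.08) with miR-376a*G. Between the forms 2 of these genes were higher and 4 lower with miR-376a*A (median -0.04), among them IFIT2 at -0.40 and HERC5 at -0.31 as lower and PARP9 at 0.42 as higher. The other probe set of IFIT2 had the opposite sign (0.18), and that of PARP9 (0.12) did not pass. The part of these genes' changes in the ADAR result was not tested.

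Genes that sense or act on double-stranded RNA, the substrate of ADAR and ADARB1, were described next. Among 13 tested sensors and effectors 1 rose and 3 fell with miR-376a*A (median -0.02), and 1 rose and 2 fell with miR-376a*G (median -0.12), beside 21.3% and 25.8% of all tested probe sets called in either direction. IFIH1, the sensor held in check by ADAR editing, fell 1.26-fold with miR-376a*A (adjusted p = 0.0322), and its adaptor gene MAVS rose 1.33-fold. IRF3, which switches on interferon genes, fell 1.45-fold with miR-376a*A and 1.37-fold with miR-376a*G. With miR-376a*G, OASL fell 1.3-fold and the endosomal sensor gene TLR3 rose 1.34-fold. Between the forms 1 was higher with miR-376a*A (OASL, 1.34-fold) and 1 lower (MLKL, 1.22-fold), beside 18.1% of all tested probe sets called.

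Among 13 tested regulators and transporters of ADAR proteins 1 rose and 4 fell with miR-376a*A (median -0.04), and 2 rose and 2 fell with miR-376a*G (median 0.02). Of all tested probe sets 21.3% and 25.8% were called in these comparisons, and 18.1% between the forms. KPNA1, an importin alpha gene, fell 1.91-fold with miR-376a*A and 1.62-fold with miR-376a*G. WWP2, a ubiquitin ligase gene whose protein lowers ADARB1 protein, fell 1.39-fold and 1.32-fold with the A and G forms, although 1 of its 2 other tested probe sets had the opposite sign. The kinase gene MAPK8 fell 1.33-fold with miR-376a*A on 1 probe set, as none of its 4 others passed. TNPO1, the nuclear import receptor of ADAR, rose 1.17-fold with miR-376a*A and 1.27-fold with miR-376a*G. KPNA3 was the 1 gene of this list that differed between the forms, at 1.69-fold lower with miR-376a*A. Against the control KPNA3 fell 1.26-fold with miR-376a*A, where its other probe set gave 0.04, and rose 1.34-fold with miR-376a*G.

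Of 10 tested partners that bind or unwind double-stranded RNA 1 rose and 1 fell with miR-376a*A (median 0.09), and 3 rose and 1 fell with miR-376a*G (median 0.10). The shares called over all tested probe sets were 21.3% and 25.8% in these comparisons and 18.1% between the forms. STAU2, which carries RNA in neurons, was 2.21-fold lower with miR-376a*A on its brightest probe set, while the other gave 0.03. DICER1, which cuts precursor miRNAs, fell 1.26-fold with miR-376a*G, and STRBP rose 1.58-fold. SON rose 1.41-fold with miR-376a*A and 1.42-fold with miR-376a*G on 1 probe set. None of its 4 others passed with miR-376a*A, and 1 of them passed as lower with miR-376a*G. Between the forms 1 partner was higher with miR-376a*A (DICER1, 1.3-fold) and 2 lower (STAU2, 2.25-fold, and STRBP, 1.41-fold), and the other STAU2 probe set passed in the opposite direction, at 0.42.

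Transcripts known to be recoded by ADAR enzymes were set beside the whole array, where 21.3%, 25.8% and 18.1% of probe sets were called in the 3 comparisons. Of 17 tested, 2 rose and 1 fell with miR-376a*A (median 0.06), and 1 rose and 2 fell with miR-376a*G (median -0.07). MFN1, a mitochondrial fusion gene, fell 1.31-fold with miR-376a*A and 1.24-fold with miR-376a*G. CADPS, a vesicle release gene, fell 1.51-fold with miR-376a*G. CDK13 rose 1.41-fold with miR-376a*A and 1.25-fold with miR-376a*G on 1 probe set. Its 5 others lay between -0.25 and -0.03 with miR-376a*A, where none passed, and 1 of them passed as lower with miR-376a*G. GABRA3, a GABA receptor subunit gene, rose 1.21-fold with miR-376a*A. Between the forms 3 were higher with miR-376a*A, namely CADPS (1.63-fold), GABRA3 (1.28-fold) and CCNI (1.19-fold), and 0 lower. These are transcript levels, and the editing of these transcripts cannot be read from the arrays.

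Enzymes that modify tRNA, many of them in the anticodon loop where the ADAT enzymes act, moved in both directions. The list also holds enzymes of other tRNA positions, among them TRMT2A and TRMT6, so its counts are not those of anticodon-loop enzymes alone. Of 32 tested, 4 rose and 6 fell with miR-376a*A (median -0.06), and 8 rose and 2 fell with miR-376a*G (median 0.08). Over the whole array 10.3% of probe sets were higher and 11.1% lower with miR-376a*A, and 11.5% higher and 14.3% lower with miR-376a*G. Between the forms 10.2% were higher and 7.95% lower with miR-376a*A. NSUN2, a cytosine methyltransferase of tRNA, fell 2.32-fold with miR-376a*A (adjusted p = 3.29e-07), and ELP4 of the Elongator complex fell 1.42-fold. TRMT5 rose 1.37-fold with miR-376a*A and 1.34-fold with miR-376a*G, on 1 of its 2 tested probe sets. The queuine transferase subunit gene QTRT2 fell 1.45-fold with miR-376a*A and 1.58-fold with miR-376a*G. With miR-376a*G NSUN3 rose 1.41-fold, on 1 of its 3 tested probe sets. Between the forms 0 were higher and 6 lower with miR-376a*A (median -0.12), among them NSUN2 (2.27-fold), PUS1 (1.75-fold) and ELP4 (1.45-fold).

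Other deaminases were described for comparison. Of all tested probe sets 21.3% and 25.8% were called with miR-376a*A and miR-376a*G against the control, and 18.1% between the forms. Neither tested relative of ADAR without known editing activity on RNA passed in any comparison. Of 11 tested cytidine deaminases and cofactors 0 rose and 2 fell with miR-376a*A (median 0.04), and 4 rose and 2 fell with miR-376a*G (median -0.12). RBM47, a cofactor of C-to-U editing, fell 1.42-fold with miR-376a*A and 1.45-fold with miR-376a*G. DCTD, which deaminates dCMP, fell 1.28-fold with miR-376a*A and rose 1.31-fold with miR-376a*G, and was the 1 gene of this list that differed between the forms, at 1.68-fold lower with miR-376a*A (adjusted p = 3.46e-06). APOBEC3B, a cytidine deaminase of DNA, rose 1.26-fold with miR-376a*G. Among 4 tested deaminases of free purines none passed with miR-376a*A (median -0.09). With miR-376a*G (median -0.27) the AMP deaminase genes AMPD2 and AMPD3 fell 1.25-fold and 1.48-fold. Between the forms AMPD2 and AMPD3 were 1.24-fold and 1.34-fold higher with miR-376a*A than with miR-376a*G.

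**Figure D4:**
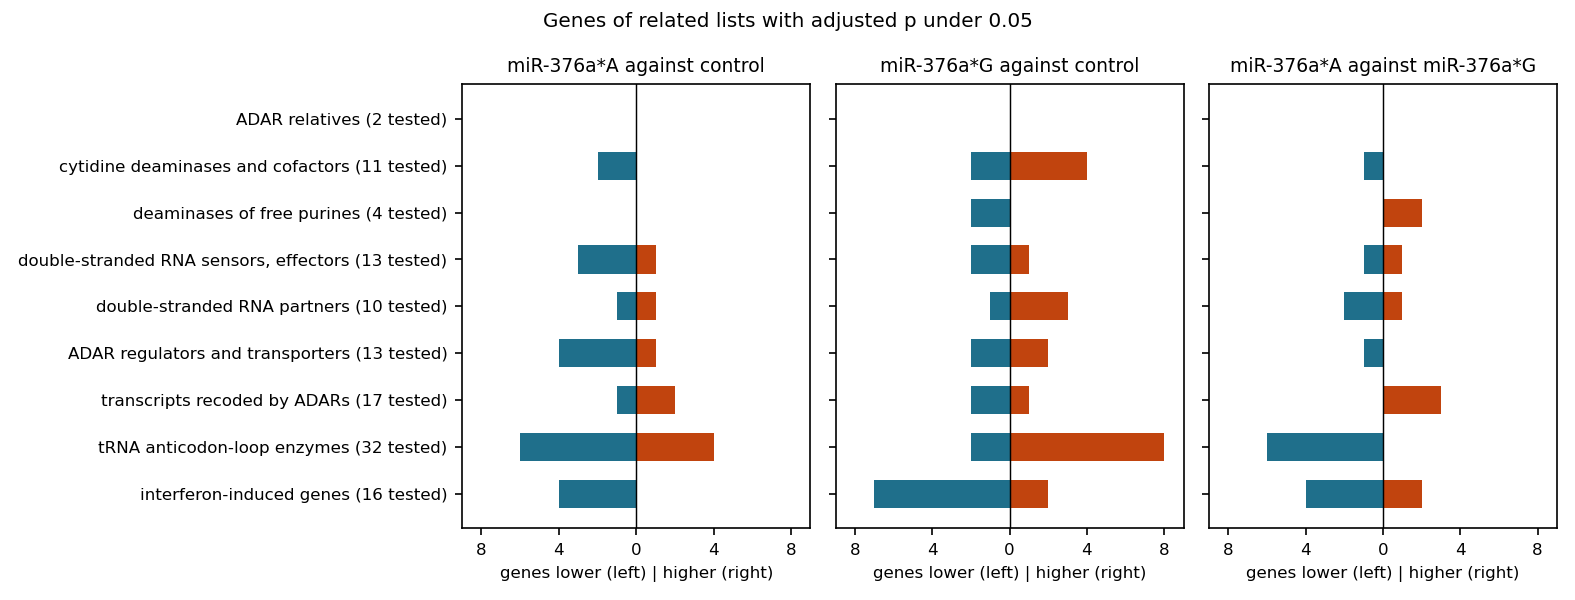
Number of genes with an adjusted p under 0.05 in each of 9 related gene lists, lower to the left of 0 and higher to the right (x axis), for the 3 comparisons; the number tested stands beside each list's name. The tRNA list, which also holds enzymes acting outside the anticodon loop, has 8 higher genes of 32 tested with miR-376a*G. There 11.5% of all tested probe sets were higher. The interferon list has more lower than higher genes in every panel.

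Genes with profiles most like each member were found by Pearson correlation of log2 values over the 9 arrays, among 13696 other genes by their brightest tested probe set. The values describe 9 points that fall into 3 groups and share the arrays. For ADAR these were PPP1R18 (r = 0.989), the inositol hexakisphosphate kinase gene IP6K1 (r = 0.987) and the stress granule gene G3BP1 (r = 0.986), each lowest with miR-376a*G and highest in the control. G3BP1, for example, averaged 858.5 with miR-376a*A, 713.8 with miR-376a*G and 1011.6 in the control. ADAT1 was closest to VPS41 (r = 0.982), WWP1 (r = 0.980) and SAMD8 (r = 0.979), each lowest with miR-376a*A. The brighter ADAT2 probe set was closest to CISD2 (r = 0.969), NRF1 (r = 0.933) and DEK (r = 0.924), each highest with miR-376a*G. ADAT3 was closest to PCDH17 (r = 0.962), MNT (r = 0.958) and LINC01963 (r = 0.950). ADARB1 had the weakest likenesses, to ABHD1 (r = 0.943), LOC101927143 (r = 0.927) and MACROD2 (r = 0.919).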

How the data were processed

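Each deposited value is the intensity of a probe set on 1 array, on a linear scale. Per the submitters' processing notes GCOS 1.4.0.036 was among the tools, with no role named, and no source used here gives how signals were summarised or scaled. All arrays share a trimmed mean, which hides any change common to the whole transcriptome.

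Groups were taken from the sample titles. The 62 array controls among 54675 probe sets were dropped. Signals were analysed as log2(signal + 16), so folds of dim probe sets are understated. Probe sets with a mean log2 value under the 40th percentile (4.771, a signal of 11.3) were not tested, and the other 32768 were fitted apart (R 4.3.3, limma 3.58.1: a linear model per probe set, then moderated variances with an intensity trend, on 6 residual and 6.72 prior degrees of freedom), with Benjamini-Hochberg adjustment over all of them. The number of arrays limits the precision, and the median SE was 0.102 (log2). The fit was tested on simulated data. Genes of related lists are represented by their brightest tested probe set. From each list up to 3 genes per comparison are named, those of smallest adjusted p that pass and whose groups do not overlap. Some named genes are also given in other comparisons in which they passed. Symbols are those of the platform annotation, and the Entrez identifiers of all 5 genes match the RefSeq table of GRCh38.p14. Members and lists were chosen with earlier results of these data known, so no count here is independent support for those results. Tables were made with pandas 2.3.3 and numpy 2.4.6 in Python 3.11.15, and figures with matplotlib 3.10.9.

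Alternatives were an offset of 1 or 64, no filter or the 60th percentile, quantile normalization, median centring, no intensity trend, array weights, 1 probe set per gene, only the compared groups, a replicate block and each array left out.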

Additional observations from a re-analysis of the deposited data

How the results depend on the processing

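Of 513 recomputed differences of single deaminase probe sets, 462 kept their direction and their side of the threshold. That share says little about robustness, as most of these differences were not called to begin with. Many alternatives also cannot change a difference, only its p-value. These are the filters, no intensity trend, 1 probe set per gene, only the compared groups, the replicate block and arrays of the third group left out. The number passing with miR-376a*A against the control was 2 and fell to 1 in a fit of only the compared groups, and it lay between 0 and 2 with 1 array left out (0 without miR-376a*A replicate 2 or 3). Between the forms the count of 1 became 4 with array weights and 0 with no filter, where more probe sets are adjusted over, and lay between 0 and 1 with 1 array left out. With miR-376a*G it was 3 and ranged from 2 to 4. Array weights gave control replicate 3 a weight of 6.94 and control replicate 1 one of 0.198. Same-numbered replicates did not pair, with correlations of their deviations from the group mean between -0.103 and 0.0628. With the replicate block the counts were 2, 3 and 1, and the block changed no call of a single deaminase probe set. Only differences near 0 changed sign, none of them called either way, and the cause was not tested. With miR-376a*A against the control these were ADARB1 207999_s_at (0.001 with array weights) and ADAT2 227213_at (-0.005 after median centring, -0.075 to 0.128 with 1 array left out). With miR-376a*G ADARB1 203865_s_at ranged from -0.138 to 0.002 with 1 array left out. Between the forms they were, with 1 array left out, ADARB1 207999_s_at (-0.009 to 0.193), ADARB1 203865_s_at (-0.066 to 0.056), ADAT2 236817_at (-0.035 to 0.097) and ADAT3 1553967_at (-0.177 to 0.265). Under other settings ADARB1 203865_s_at gave -0.045 after median centring and -0.039 after quantile normalization, ADAT2 236817_at gave -0.036, -0.041 and -0.009 under median centring, quantile normalization and array weights, and ADAT3 1553967_at gave 0.147 at an offset of 1. Over all probe sets, 4177, 4993 and 3671 passed with 1 probe set per gene and 13994, 15262 and 10155 with array weights, beside 6988, 8454 and 5942 as reported, and between the forms 3961 passed when replicate 2 of miR-376a*A was dropped and 3819 when that of miR-376a*G was. Probe sets of low signal, as most of those of ADARB1, limit what can be read of small changes.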
